A study of Mus musculus with 6 samples.

Results

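The genes described here encode the nuclear subunits of the mitochondrial oxidative phosphorylation system, followed in mouse embryonic stem cells whose own OCT4 was replaced by another POUV protein. The members are the nuclear protein-coding genes whose symbols begin with Nduf, Sdha, Sdhb, Sdhc, Sdhd, Uqcr, Cox4, Cox5, Cox6, Cox7, Cox8 or Atp5. A total of 119 symbols in the RefSeq table matched, 19 of them pseudogenes that were left out, which gave 100 genes. Of these, 97 had a probe on the array, among 20972 genes named there, and 95 passed the filter on dim probes, among 14590 genes tested. Ndufb1, Ndufb4b and Ndufb4c had no probe, and Cox7b2 and Cox8b did not pass the filter. The rule also takes in 12 assembly factors, Ndufaf1 to Ndufaf8 and Sdhaf1 to Sdhaf4, which are not subunits and are given apart from the 83 subunits tested. Ndufa4 and its paralog Ndufa4l2 are placed with complex IV, to which the NDUFA4 protein is now assigned.

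The lines derive from ZHBTc4 cells, mouse embryonic stem cells that lack functional endogenous Oct4 alleles and depend on an Oct4 transgene that tetracycline shuts off. All groups were kept in tetracycline at 2 µg/mL with serum and LIF, carried a pCAG-IP plasmid for constitutive expression of a POUV protein, and were selected with puromycin at 1 µg/mL from day 2. Colonies were picked at day 9, so each line is 1 clone. The rescuing protein was coelacanth POU5F1 (LcPOU5F1, clones 4 and 5), coelacanth POU5F3 (LcPOU5F3, clones 1 and 2) or mouse OCT4 (mOct4, clones 1 and 2). The series asks how far POUV proteins of other vertebrates can support pluripotency in place of mouse OCT4. Total RNA of each clone was hybridised to 1 Agilent 1-colour array.

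Oxidative phosphorylation couples the oxidation of NADH and succinate to ATP synthesis in the inner mitochondrial membrane. Complexes I (NADH dehydrogenase) and II (succinate dehydrogenase) pass electrons to ubiquinone, complex III (cytochrome bc1) passes them on to cytochrome c, and complex IV (cytochrome c oxidase) reduces oxygen. Complexes I, III and IV pump protons, and complex V (ATP synthase) uses the gradient to make ATP. Apart from complex II, which is wholly nuclear-encoded, the complexes combine the nuclear subunits with a few subunits made from mitochondrial DNA, which are not among the members. Naive mouse embryonic stem cells respire actively, and the factors NRF1, GABP, YY1 and the estrogen-related receptors are known regulators of these genes.

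The share of probes well above background ranged over the arrays between 43.5% and 57.8%, and no spot was saturated. All 8 naive embryonic stem cell markers were well above background on every array. Their summed linear signal, relative to each array's 75th percentile, was 359 and 443 in the LcPOU5F1 clones, 108 and 56.2 in the LcPOU5F3 clones and 412 and 427 in the mOct4 clones. That of the 9 measured trophectoderm markers (of 10) was 32.5 and 23.6, 524 and 549, and 35.3 and 36.0 in the same order of clones. In LcPOU5F3 against mOct4, 6 of these 9 were called higher, 1 was called lower and 2 did not pass. Their log2 differences ran from -2.02 to 6.10. Elf5 was not well above background on any array. The 5 measured fibroblast markers (of 6) summed to 31.2 and 61.0 in the LcPOU5F3 clones, against 2.85 and 2.54 in the mOct4 clones. Tagln and Thy1 were called higher there, while Col1a1 (-0.80), Col1a2 (-0.45) and Col3a1 (0.72 as log2 differences) did not pass, and Col1a1 was not well above background on either LcPOU5F3 array. The 5 measured primitive endoderm markers (of 8) summed to 1.93 and 1.37 in the LcPOU5F1 clones, 2.10 and 3.13 in the LcPOU5F3 clones and 1.81 and 1.65 in the mOct4 clones. In LcPOU5F3 against mOct4, 1 was called higher, 1 was called lower and 3 did not pass, with log2 differences from -1.56 to 4.72. In LcPOU5F1 against mOct4, 1 was called higher and 4 did not pass. The part of all these markers in the differences between the groups' other genes was not tested. In bulk RNA, fewer cells of a type and less RNA per cell cannot be told apart.

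Levels are log2 processed signals relative to the array's 75th percentile, so that 0 is the 75th percentile of that array. Differences are log2 differences of group means with the standard error (SE) of limma's fit to all 6 arrays. A gene was called at an adjusted p under 0.05 after Benjamini-Hochberg adjustment over all genes tested. Levels of different genes come from different probes and are not set against each other.

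In the LcPOU5F3 clones, 11 of the 95 genes fell and 2 rose relative to the mOct4 clones, and the other 82 did not pass the test. Those that fell include Ndufv1 of complex I, Sdhb of complex II, Uqcrc1 of complex III, Cox5a and Cox7c of complex IV and Atp5b and Atp5g1 of complex V. Cox6b2 and Ndufab1 rose. The share called, 13.7%, was below the 23.5% called among all genes (11.8% higher and 11.7% lower). The median difference over the 95 genes was -0.25, against -0.09 over all genes, with 67 negative and 28 positive. Most differences were thus small and lay on the lower side. Whether the genes were called less or more often than others depended on the fit, since limma with an intensity trend called 41.1% of them, against 31% of all genes. One of the genes that fell, Cox8c, passed the filter on dim probes only through the mOct4 arrays, where it is high, so its call is given as a description. Ndufa4l2, which also fell, passed it only through the LcPOU5F1 and mOct4 arrays, so its call too is given as a description.

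The clones showed the same lean without a test. Both LcPOU5F3 clones lay below both mOct4 clones for 58 of the 95 genes (61.1%), against 38.3% of all genes, and above them for 13 (13.7%), against 30.2% of all genes. Set against all 4 other clones, both LcPOU5F3 clones were lowest for 57 genes (60%), against 29.6% of all genes. They were highest for Sdhaf4, Ndufb6 and Cox6b2 (3.16%), against 20.5% of all genes. The median SD between the 2 clones of a group was 0.08 in LcPOU5F1, 0.08 in LcPOU5F3 and 0.07 in mOct4 for the members, and 0.15, 0.23 and 0.11 in the same order for all genes.

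**Figure D1:**
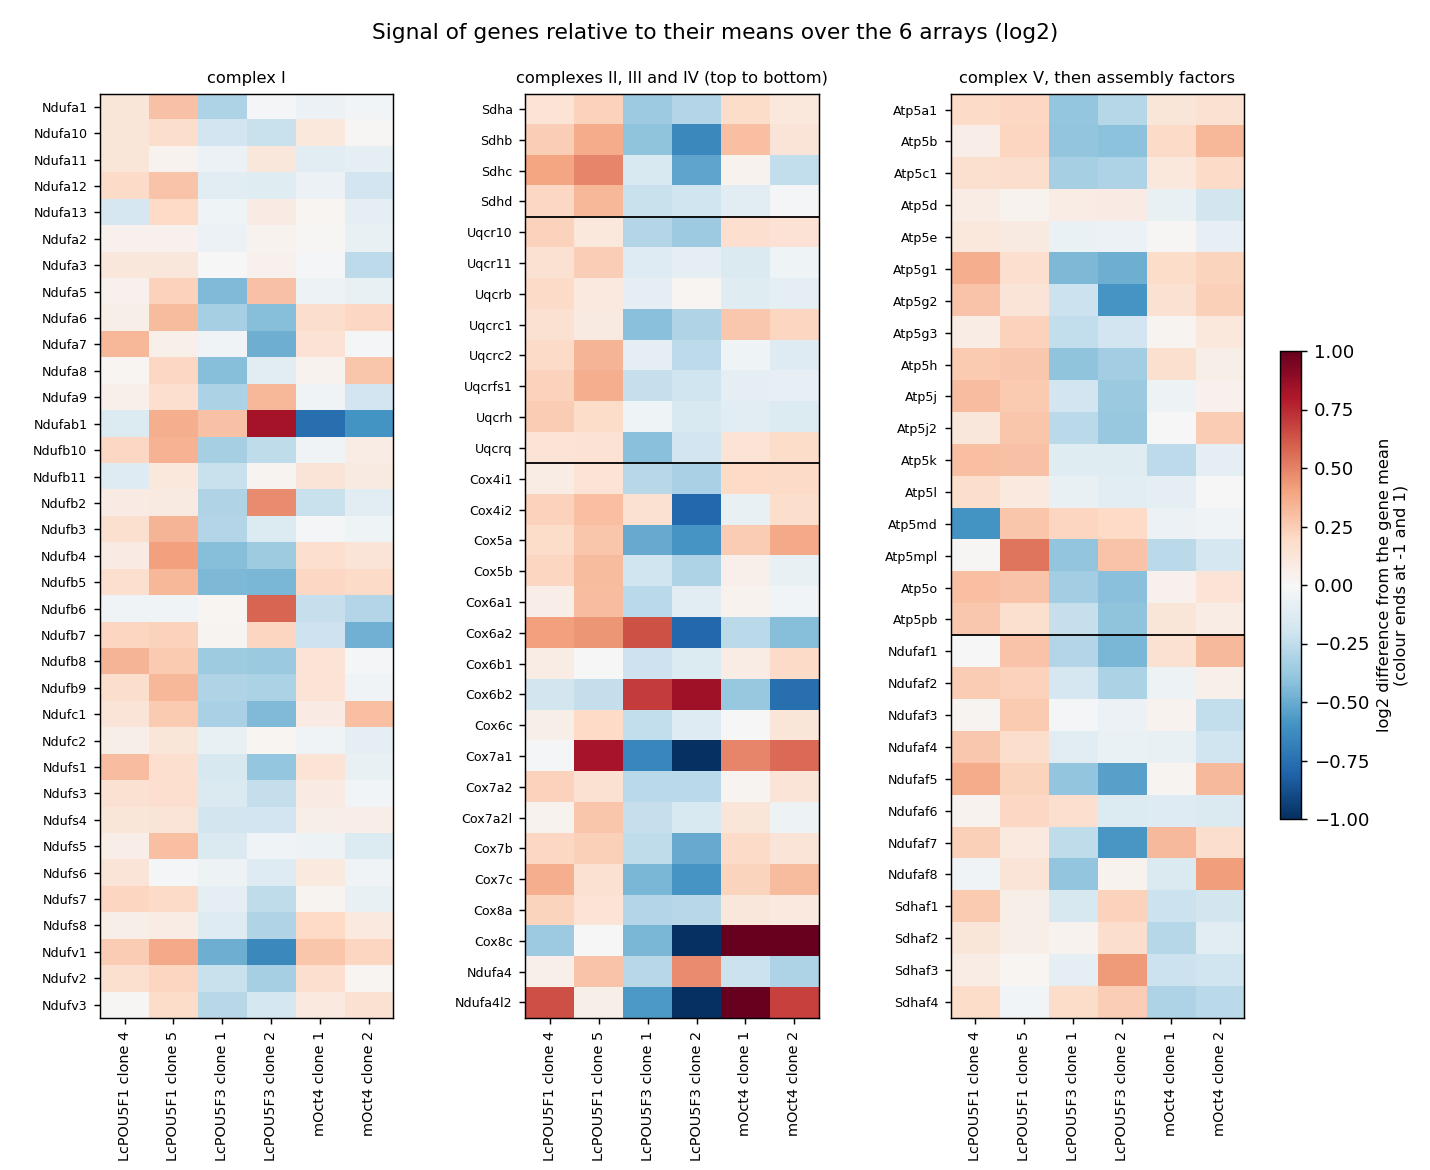
Log2 signal of 94 of the 95 genes (rows) on each of the 6 arrays (columns), relative to the gene's mean over the arrays, with red above and blue below that mean and the colour ending at -1 and 1. The LcPOU5F3 columns are blue in most rows of complexes II to V, while Cox6b2 and Ndufab1 run the other way.

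The relation to mOct4 is shown first for complex I, of which 36 subunits were tested. Ndufv1, the flavoprotein subunit that binds NADH, had log2 signals of 6.42 and 6.55 in the LcPOU5F1 clones, 5.68 and 5.52 in the LcPOU5F3 clones and 6.44 and 6.38 in the mOct4 clones. The LcPOU5F3 clones lay below all others, and the LcPOU5F1 and mOct4 clones overlapped. Ndufv1 fell 1.75-fold in LcPOU5F3 against mOct4 (log2 difference -0.81 ± 0.15, limma adjusted p = 0.0214). Ndufb5, an accessory subunit of the membrane arm, had log2 signals of 4.84 and 5.00 in the LcPOU5F1 clones, 4.23 and 4.22 in the LcPOU5F3 clones and 4.88 and 4.87 in the mOct4 clones, and it too fell (-0.65 ± 0.14, adjusted p = 0.032). A second Ndufb5 probe gave -0.25, and the call was lost when the median of a gene's probes was used. Ndufab1, the mitochondrial acyl carrier protein that also serves fatty acid synthesis, had log2 signals of 1.72 and 2.21 in the LcPOU5F1 clones, 2.15 and 2.68 in the LcPOU5F3 clones and 1.09 and 1.25 in the mOct4 clones. The LcPOU5F3 and LcPOU5F1 clones overlapped there, and all 4 lay above the mOct4 clones. Ndufab1 rose 2.36-fold in LcPOU5F3 against mOct4 (1.24 ± 0.27, limma adjusted p = 0.0318). The median over complex I was -0.21.

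Complex II has 4 subunits, all tested, with a median of -0.36 in LcPOU5F3 against mOct4. Sdhb carries its iron-sulphur clusters and had log2 signals of 6.13 and 6.26 in the LcPOU5F1 clones, 5.48 and 5.24 in the LcPOU5F3 clones and 6.18 and 6.02 in the mOct4 clones. The LcPOU5F3 clones were the lowest, and Sdhb fell 1.67-fold against mOct4 (-0.74 ± 0.17, limma adjusted p = 0.0347), with -0.62 on a second probe. The other 3 subunits did not pass. Sdha, the flavoprotein that oxidises succinate, differed by -0.48 ± 0.14 (adjusted p = 0.0646). The membrane anchors Sdhc and Sdhd differed by -0.24 ± 0.20 and -0.16 ± 0.14.

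The 8 complex III subunits had a median of -0.11, against -0.09 over all genes. Of them, Uqcrc1 was called (12.5%, against 23.5% of all genes). This core protein of the matrix side had log2 signals of 4.71 and 4.65 in the LcPOU5F1 clones, 4.14 and 4.26 in the LcPOU5F3 clones and 4.83 and 4.78 in the mOct4 clones. The LcPOU5F3 clones lay below the other 4, and the difference from mOct4 was -0.60 ± 0.14 (1.52-fold lower, limma adjusted p = 0.0372). At the other end, Uqcrb, a small subunit near the ubiquinone site, differed by 0.07 ± 0.14 (adjusted p = 0.732). Uqcrfs1, the Rieske iron-sulphur protein, differed by -0.13 ± 0.14 (adjusted p = 0.53).

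Complex IV had 6 of 18 tested genes called (33.3%, against 23.5% of all genes), 5 lower and 1 higher, and a median of -0.36. The 5 lower include Cox8c and Ndufa4l2, which passed the filter only through groups where they are high. Cox5a, a nuclear subunit present in all tissues, had log2 signals of 7.77 and 7.86 in the LcPOU5F1 clones, 7.08 and 6.99 in the LcPOU5F3 clones and 7.84 and 7.97 in the mOct4 clones. Its LcPOU5F3 clones lay below all others, at 1.82-fold under mOct4 (-0.87 ± 0.14, limma adjusted p = 0.0177). Cox7c, a small subunit of the same kind, had log2 signals of 6.29 and 6.08 in the LcPOU5F1 clones, 5.47 and 5.34 in the LcPOU5F3 clones and 6.15 and 6.24 in the mOct4 clones and fell 1.73-fold against mOct4 (-0.79 ± 0.16, adjusted p = 0.026). Its other 2 probes gave -0.92 and -0.97. The remaining calls of complex IV were in genes with tissue-restricted isoforms.

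Cox6b2, the testis isoform of the subunit that joins the enzyme's monomers, had log2 signals of 2.89 and 2.83 in the LcPOU5F1 clones, 3.76 and 3.92 in the LcPOU5F3 clones and 2.69 and 2.32 in the mOct4 clones. The LcPOU5F3 clones stood above the other 4, and Cox6b2 rose 2.53-fold against mOct4 (1.34 ± 0.18, limma adjusted p = 0.0124). Its somatic counterpart Cox6b1 differed by -0.30 ± 0.14 (adjusted p = 0.175). Cox7a1, the heart and muscle isoform, had log2 signals of 3.42 and 4.25 in the LcPOU5F1 clones, 2.78 and 2.22 in the LcPOU5F3 clones and 3.92 and 4.00 in the mOct4 clones. It fell 2.75-fold in LcPOU5F3 against mOct4 (-1.46 ± 0.34, adjusted p = 0.0383). Among 6 muscle markers only Acta1 and Myh7 were measured. Acta1 rose in LcPOU5F3, while Myh7 differed by -0.82 from mOct4 and did not pass. Ckm, Myl1, Myog and Tnnt2 were not well above background on either LcPOU5F3 array. The broadly expressed Cox7a2 and its relative Cox7a2l, which acts in respiratory supercomplexes, differed by -0.35 ± 0.14 and -0.23 ± 0.16 and did not pass.

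Cox8c, another testis isoform, was well above background only on the mOct4 arrays, with log2 signals of -2.60 and -2.55. It was at least 1.48-fold lower in the LcPOU5F3 clones than in the mOct4 clones (limma adjusted p = 0.0248). Since it passed the filter only through mOct4, a difference in this direction had to follow. Such a bound sets the brighter mean against the lowest signal well above background on each dim array, or the probe's own signal where that is higher. The spread between clones does not enter it. Ndufa4l2, the NDUFA4 paralog known as a hypoxia-responsive gene, was not well above background on either LcPOU5F3 array. It was at least 4.63-fold lower in LcPOU5F3 than in mOct4 (adjusted p = 0.0386). It passed the filter only through the LcPOU5F1 and mOct4 arrays, where it is high, so this call is a description. Its log2 signals were -1.20 and -1.79 in the LcPOU5F1 clones and -0.64 and -1.16 in the mOct4 clones, both LcPOU5F1 clones lying below both mOct4 clones by a small margin (-0.59 ± 0.53, adjusted p = 0.598).

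The other isoform genes did not pass. Cox8a, the common counterpart of Cox8c, differed by -0.39 ± 0.13 (adjusted p = 0.0923). Ndufa4, with a difference of 0.36 ± 0.28, had LcPOU5F3 clones at 4.85 and 5.60, against 4.92 and 4.82 in the mOct4 clones, so the groups overlapped. Cox4i1 and the lung isoform Cox4i2 differed by -0.50 ± 0.13 and -0.37 ± 0.33. Cox6a1 and its muscle isoform Cox6a2 differed by -0.19 ± 0.16 and 0.28 ± 0.46, and 1 of the 2 LcPOU5F1 arrays did not measure Cox6a2 well above background. Cox7b differed by -0.54 ± 0.16 (limma adjusted p = 0.0622). Cox8c and Ndufa4l2 passed the filter only through groups where they are high. Apart from them, the isoform genes called were thus Cox6b2, which rose, and Cox7a1, which fell.

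Complex V had the lowest median, -0.41, over 17 tested genes. Atp5b, the catalytic beta subunit, had log2 signals of 8.26 and 8.41 in the LcPOU5F1 clones, 7.80 and 7.79 in the LcPOU5F3 clones and 8.39 and 8.53 in the mOct4 clones. Its LcPOU5F3 clones lay below the other 4, and it fell 1.59-fold against mOct4 (-0.67 ± 0.15, limma adjusted p = 0.0329). The proton-carrying c ring is encoded by Atp5g1, Atp5g2 and Atp5g3, which give the same mature protein. Atp5g1 had log2 signals of 7.17 and 6.97 in the LcPOU5F1 clones, 6.35 and 6.31 in the LcPOU5F3 clones and 6.98 and 7.02 in the mOct4 clones and fell 1.59-fold (-0.67 ± 0.15, adjusted p = 0.0327). Atp5g2 and Atp5g3 differed by -0.60 ± 0.18 and -0.29 ± 0.14 and did not pass. At the other end was Atp5md, a small membrane subunit, at 0.25 ± 0.30 (adjusted p = 0.57).

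None of the 12 assembly factors was called in LcPOU5F3 against mOct4 at an adjusted p under 0.05, and 4 (33.3%) had an unadjusted p under 0.05, against 40.2% of all genes. Their median was 0.05, with 7 positive and 5 negative. The lowest was Ndufaf7, a methyltransferase that acts on a complex I subunit, at -0.67 ± 0.18 (limma adjusted p = 0.0515). The highest was Sdhaf4, which aids the maturation of the SDHA flavoprotein, at 0.50 ± 0.15 (adjusted p = 0.0675). Whether the factors differ from the subunits was not tested.

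**Figure D2:**
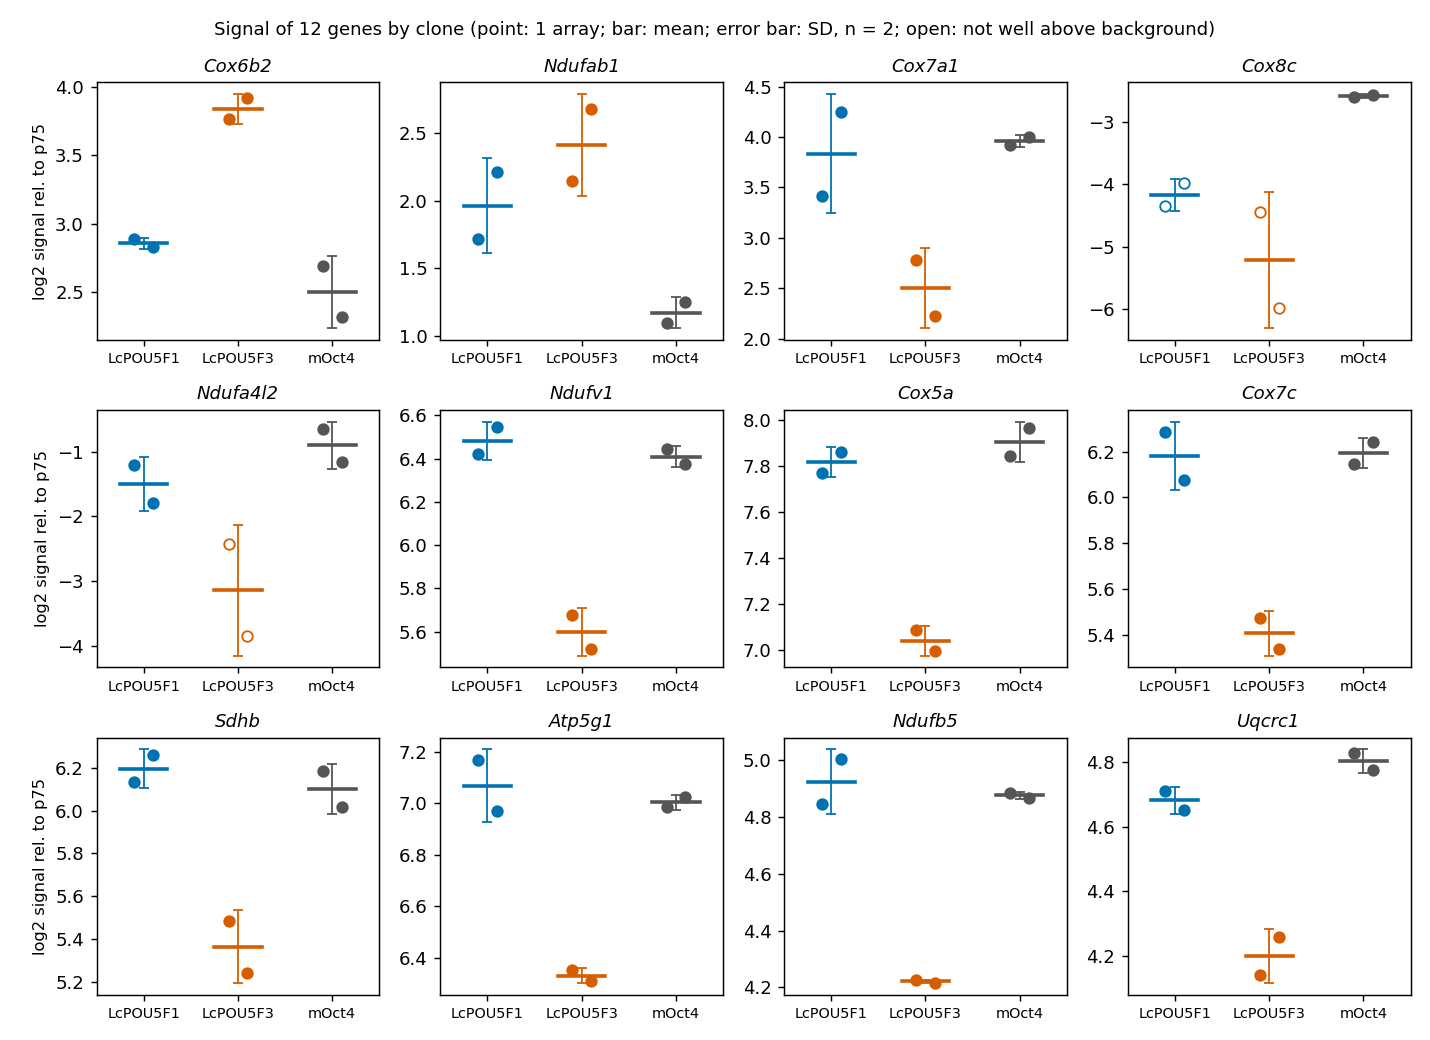
Log2 signal relative to the array's 75th percentile (vertical axis, its range set for each panel) of 12 genes in the LcPOU5F1, LcPOU5F3 and mOct4 clones, with 1 point per array, bars for means and error bars for the SD (n = 2), and open points where no array of the group was well above background. The LcPOU5F3 points lie below all other points for Cox7a1, Ndufv1, Cox5a, Cox7c, Sdhb, Atp5g1, Ndufb5, Uqcrc1 and Ndufa4l2, and above them for Cox6b2.

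These calls, like most calls among all genes, rest on both mOct4 clones. Fits without mOct4 clone 1 or without mOct4 clone 2 leave 1 clone in that group, so only their sizes are given. In LcPOU5F3 against mOct4 the medians of these fits were -0.25 and -0.25. The second of these is also the value within slide 1, since slide 2 held mOct4 clone 2 alone. Each of the 13 called genes kept its sign in both fits. Without LcPOU5F3 clone 1 the median was -0.27, and without LcPOU5F3 clone 2 it was -0.26. With only the 4 arrays compared, limma called 6 members (6.32%), against 15.1% of all genes. Centring arrays on the median called 2 higher and 3 lower (5.26%), in place of 2 and 11, against 16.8% of all genes. Cox6b2, Ndufab1 and Cox7a1, and Cox8c and Ndufa4l2 with the limit given above, were called with 75th-percentile, median and quantile scaling alike.

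In the LcPOU5F1 clones, none of the 95 genes passed the test against mOct4. Limma with Benjamini-Hochberg adjustment called 0 of them, against 0.0343% of all genes (5 genes, 0.0137% higher and 0.0206% lower), and 7 had an unadjusted p under 0.05, as did 2279 of the 14590 genes. The median difference was 0.13, against 0.10 over all genes, with 75 positive and 20 negative. Both LcPOU5F1 clones lay above both mOct4 clones for 55 genes (57.9%), against 38.8% of all genes, and below them for 6 (6.32%), against 21.9% of all genes. The 95% confidence interval of the difference lay within 2-fold either way for 87 of the 95 genes. It reached 2-fold for Ndufab1, Sdhc, Cox4i2, Cox6a2, Cox8c, Ndufa4, Ndufa4l2 and Atp5mpl, whose differences are less closely bounded.

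By complex, the median differences of LcPOU5F1 from mOct4 were 0.14 for complex I, 0.21 for II, 0.27 for III, 0.07 for IV and 0.12 for V, and 0.26 for the assembly factors. Ndufab1 was the highest of complex I at 0.79 ± 0.27 (limma adjusted p = 0.276). In complex II, Sdhc differed by 0.55 ± 0.20 and Sdha by 0.04 ± 0.14. In complex III, Uqcrfs1 differed by 0.38 ± 0.14 and Uqcrc1 by -0.12 ± 0.14. None of these passed.

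Cox8c was lower in LcPOU5F1 on the fitted scale (-1.59 ± 0.51, limma adjusted p = 0.262). It was not well above background on either LcPOU5F1 array, and its bound gives no fold. With median centring, with quantile scaling and with only these 4 arrays fitted, Cox8c was called lower and was the only member called. As it was tested only because of its level in mOct4, these calls support nothing about LcPOU5F1. Cox6a2 differed by 0.77 ± 0.46 and Cox6b2 by 0.36 ± 0.18. In complex V, Atp5mpl, a small membrane subunit, differed by 0.49 ± 0.30 and Atp5b by -0.12 ± 0.15. Among the assembly factors, Sdhaf4 differed by 0.36 ± 0.15 and Ndufaf1 by -0.10 ± 0.18. None of these passed with the 75th percentile.

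**Figure D3:**
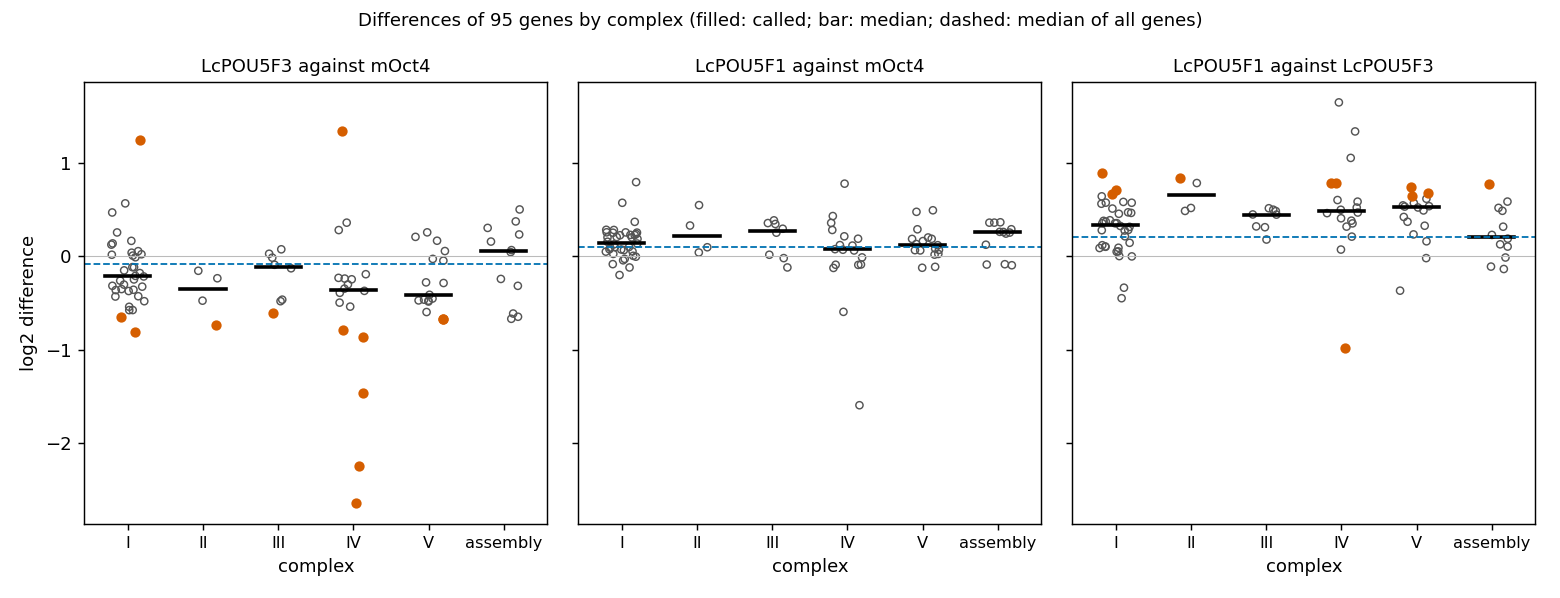
Log2 difference (vertical axis) of each of the 95 genes by complex and for the assembly factors (horizontal axis) in 3 comparisons, with called genes filled, black bars for the median of each class and a dashed line for the median of all 14590 genes. In LcPOU5F3 against mOct4 the medians of complexes I to V lie below the dashed line, that of complex III by little (-0.11 against -0.09). The median of the assembly factors lies above this line, and in LcPOU5F1 against mOct4 no point is filled.

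Set against LcPOU5F3, the LcPOU5F1 clones had 10 of the 95 genes higher and 1 lower, and 84 did not pass. The share called, 11.6%, was below the 20.6% of all genes (10.6% higher and 9.99% lower). With an intensity trend the order turned, at 52.6% against 30% of all genes. The median difference was 0.40, against 0.21 over all genes, with 86 positive. Both LcPOU5F1 clones lay above both LcPOU5F3 clones for 75 genes (78.9%), against 41.1% of all genes, and below them for 3 (3.16%), against 24% of all genes. This comparison shares its LcPOU5F3 arrays with LcPOU5F3 against mOct4, so the values of each are given side by side.

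The largest called rise was in Ndufv1, 1.85-fold higher in LcPOU5F1 than in LcPOU5F3 (0.88 ± 0.15, limma adjusted p = 0.0207). Ndufb8, an accessory subunit of the membrane arm of complex I, had log2 signals of 7.07 and 6.99 in the LcPOU5F1 clones, 6.37 and 6.35 in the LcPOU5F3 clones and 6.86 and 6.72 in the mOct4 clones. It was 1.59-fold higher in LcPOU5F1 than in LcPOU5F3 (0.67 ± 0.14, adjusted p = 0.034), beside -0.43 ± 0.14 for LcPOU5F3 against mOct4 (adjusted p = 0.0836). Ndufb5 was 1.63-fold higher (adjusted p = 0.0302), with 0.72 on the second probe. Ndufab1 differed by -0.45 ± 0.27 and did not pass. The subunits of complexes II and III were all positive in this comparison. Sdhb was 1.78-fold higher in LcPOU5F1 (0.83 ± 0.17, limma adjusted p = 0.0295), while Sdhc (0.78 ± 0.20, adjusted p = 0.0503), Sdha (0.51) and Sdhd (0.48) did not pass. No complex III subunit passed in this comparison, the range running from 0.18 for Uqcrb to 0.51 for Uqcrfs1 (adjusted p = 0.0577, the smallest of them).

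In complex IV, Cox5a was 1.71-fold higher (limma adjusted p = 0.0256) and Cox7c 1.71-fold higher (adjusted p = 0.0302) in LcPOU5F1 than in LcPOU5F3. Cox6b2 was 1.98-fold lower (-0.98 ± 0.18, adjusted p = 0.026). Cox7a1 differed by 1.33 ± 0.34 and just missed the threshold (adjusted p = 0.051). Its LcPOU5F1 clones, at 3.42 and 4.25, were further apart than the mOct4 clones at 3.92 and 4.00. Ndufa4l2 was at least 3.07-fold higher in LcPOU5F1 and did not pass (limma adjusted p = 0.0826).

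Complex V had 3 genes higher in LcPOU5F1 than in LcPOU5F3. Atp5g1 was 1.67-fold higher (0.74 ± 0.15, limma adjusted p = 0.0298). Atp5h, which encodes subunit d of the peripheral stalk, had log2 signals of 7.04 and 7.05 in the LcPOU5F1 clones, 6.37 and 6.42 in the LcPOU5F3 clones and 6.93 and 6.83 in the mOct4 clones and was 1.56-fold higher (adjusted p = 0.0338). Atp5o, the stalk protein that confers oligomycin sensitivity, had log2 signals of 5.16 and 5.14 in the LcPOU5F1 clones, 4.51 and 4.44 in the LcPOU5F3 clones and 4.90 and 4.99 in the mOct4 clones and was 1.60-fold higher (adjusted p = 0.0309). In LcPOU5F3 against mOct4 these stalk genes differed by -0.48 ± 0.14 and -0.48 ± 0.14 (adjusted p = 0.059 and 0.0622). Among the assembly factors, Ndufaf5, which modifies a complex I subunit, was 1.70-fold higher in LcPOU5F1 than in LcPOU5F3 (0.77 ± 0.17, adjusted p = 0.0385). The lowest, Sdhaf4, differed by -0.14 ± 0.15.

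These calls depended on the scaling and on which arrays set the spread. Median centring called 2 genes (1 higher and 1 lower, 2.11%), against 16.1% of all genes. Quantile scaling called 3 (2 and 1, 3.16%), against 20.2%, and Cox6b2 alone was called with all 3 scalings. Limma called 0 with only these 4 arrays fitted, against 3.4% of all genes. Fits without 1 clone leave 1 clone in its group, so only their sizes are given. The medians were 0.44 and 0.37 without LcPOU5F1 clones 4 and 5 in turn, and 0.40 and 0.41 without LcPOU5F3 clones 1 and 2 in turn. The 11 genes kept their signs in each of these fits.

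Because most differences are small, the scaling of the arrays sets their sign in part. Centring on the median in place of the 75th percentile moved the median of all genes to -0.27 in LcPOU5F1 against mOct4 and that of the members to -0.24. In LcPOU5F1 against LcPOU5F3 it moved them to -0.20 and 0.00, with 48 members positive and 47 negative. The orders of clones given above were taken with the 75th percentile only. Relative to all genes the members stood at -0.16, -0.16 and -0.06 in LcPOU5F3 against mOct4 with 75th-percentile, median and quantile scaling, in that order. They stood at 0.20, 0.20 and 0.13 in LcPOU5F1 against LcPOU5F3, and at 0.03, 0.03 and 0.05 in LcPOU5F1 against mOct4. With no filter on dim probes these offsets were -0.30 in LcPOU5F3 against mOct4, 0.034 in LcPOU5F1 against LcPOU5F3 and -0.088 in LcPOU5F1 against mOct4, and after normexp the last was -0.0094. In LcPOU5F3 against mOct4 the offset was -0.087 without LcPOU5F3 clone 1 and -0.25 without LcPOU5F3 clone 2. In LcPOU5F1 against LcPOU5F3 it was 0.14 and 0.31 without the same clones. In LcPOU5F1 against mOct4 it was 0.082 without LcPOU5F1 clone 4 and 0.078 without mOct4 clone 1.

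**Figure D4:**
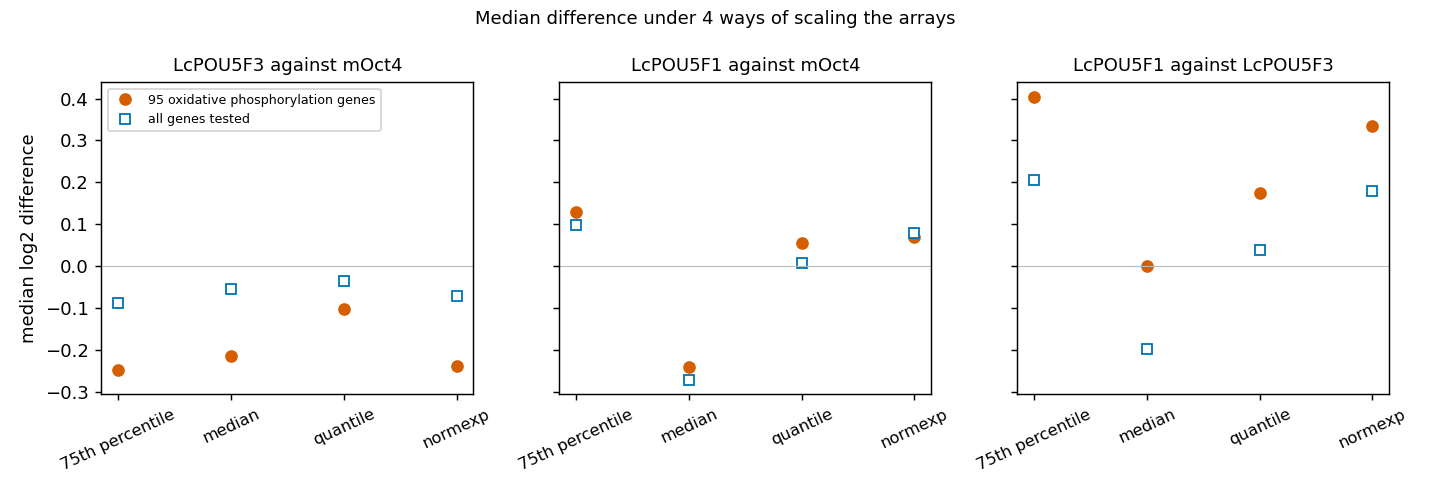
Median log2 difference (vertical axis) over the 95 genes (filled circles) and over all genes tested (open squares) with the arrays scaled to the 75th percentile, the median or by quantiles, or after normexp background correction (horizontal axis), for each comparison. The members lie below all genes in LcPOU5F3 against mOct4 and above them in LcPOU5F1 against LcPOU5F3 under each of the 4, while both medians fall below 0 with median centring in LcPOU5F1 against mOct4.

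The promoters of members that differed between LcPOU5F3 and another group are shown because several are known to be read by NRF1 and GABP. Promoters of 300 bases, 250 before and 50 after the start, were taken from RefSeq (GRCm38.p6) for 78 of the 95 genes. Both strands were searched, with overlapping matches of the NRF1 letters on opposite strands counted as 1 place, for the letters of NRF1 (GCGCANGCG), of ETS factors such as GABP (CCGGAAG), of YY1 (AAGATGGCG), of the estrogen-related receptors (TCAAGGTCA), of the octamer read by POU factors (ATGCAAAT) and of the TATA box (TATAAA). Of 15 genes called lower in LcPOU5F3 in either comparison, 13 had a promoter in the table. The 5 of these promoters that held any of the letters are printed, and the other 8 held none. They were picked for printing after the matches were known. Capitals mark the matches, read on either strand. They are Atp5h at chr11:115419870-115420169 (minus strand), Atp5o at chr16:91931581-91931880 (minus strand), Ndufaf5 at chr2:140170396-140170695 (plus strand), Sdhb at chr4:140961021-140961320 (plus strand) and Uqcrc1 at chr9:108936398-108936697 (plus strand). Cox6b2, which was higher in LcPOU5F3, is added at chr7:4753045-4753344 (minus strand), and held none of the letters.
Atp5h: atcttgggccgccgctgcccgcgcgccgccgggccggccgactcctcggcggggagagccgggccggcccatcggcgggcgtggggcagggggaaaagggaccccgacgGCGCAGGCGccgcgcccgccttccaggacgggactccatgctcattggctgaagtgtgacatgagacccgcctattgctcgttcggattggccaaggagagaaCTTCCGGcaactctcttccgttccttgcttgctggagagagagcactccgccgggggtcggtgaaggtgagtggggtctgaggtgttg
Atp5o: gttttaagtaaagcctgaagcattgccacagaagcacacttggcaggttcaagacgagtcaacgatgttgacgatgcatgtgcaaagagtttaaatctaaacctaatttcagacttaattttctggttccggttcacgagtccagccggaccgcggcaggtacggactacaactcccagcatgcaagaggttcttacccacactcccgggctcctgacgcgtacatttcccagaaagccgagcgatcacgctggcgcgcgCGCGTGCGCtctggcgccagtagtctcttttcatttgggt
Ndufaf5: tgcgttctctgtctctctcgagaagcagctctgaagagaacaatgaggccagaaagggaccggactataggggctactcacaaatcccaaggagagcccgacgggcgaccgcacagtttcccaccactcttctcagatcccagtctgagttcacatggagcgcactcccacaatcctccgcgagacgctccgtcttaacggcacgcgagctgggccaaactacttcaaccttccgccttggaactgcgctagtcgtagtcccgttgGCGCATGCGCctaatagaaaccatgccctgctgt
Sdhb: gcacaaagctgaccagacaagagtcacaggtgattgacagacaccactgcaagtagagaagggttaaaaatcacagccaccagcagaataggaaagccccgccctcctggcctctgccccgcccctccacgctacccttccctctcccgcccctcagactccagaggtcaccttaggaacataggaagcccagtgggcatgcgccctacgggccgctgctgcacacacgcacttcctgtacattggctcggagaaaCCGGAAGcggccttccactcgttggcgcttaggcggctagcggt
Uqcrc1: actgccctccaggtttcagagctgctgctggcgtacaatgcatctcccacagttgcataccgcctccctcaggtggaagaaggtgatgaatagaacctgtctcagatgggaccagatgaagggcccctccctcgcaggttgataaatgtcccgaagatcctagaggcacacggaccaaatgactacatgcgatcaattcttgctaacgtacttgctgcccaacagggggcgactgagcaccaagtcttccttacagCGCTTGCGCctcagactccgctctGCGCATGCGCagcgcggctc
Cox6b2: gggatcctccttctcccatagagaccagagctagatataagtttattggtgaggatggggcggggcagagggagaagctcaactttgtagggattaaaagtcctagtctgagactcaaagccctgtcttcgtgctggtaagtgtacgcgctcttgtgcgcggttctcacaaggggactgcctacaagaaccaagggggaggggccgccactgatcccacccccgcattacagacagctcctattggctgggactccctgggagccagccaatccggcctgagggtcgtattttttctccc
The Atp5h promoter held both the NRF1 and the ETS letters, and that of Uqcrc1 the NRF1 letters at 2 places. Those of Atp5o and Ndufaf5 held the NRF1 letters, and that of Sdhb the ETS letters.

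Over the 78 promoters, 23 (29.5%) held the NRF1 letters, against 6.47% of 27025 promoters in the table. The ETS letters stood in 21 (26.9%), against 9.12%, and the YY1 letters in 7 (8.97%), against 1.49%. Estrogen-related receptor letters stood in 2, Atp5g3 and Sdhd (2.56%), against 0.407%. The octamer letters stood in 1, Ndufs4 (1.28%), against 1.75%, and the TATA letters in 7 (8.97%), against 14.2%. The members' promoters had a median GC content of 58.8%, against 52.7% over the table, and the part of GC content in these shares was not tested. Among the 13 promoters of genes called lower in LcPOU5F3, 4 (30.8%) held the NRF1 letters and 2 (15.4%) the ETS letters. These matches describe the letters only and say nothing of binding.

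Genes that build, feed or regulate the chain were set beside the members in LcPOU5F3 against mOct4, where 23.5% of all genes were called. Of 17 regulators of mitochondrial biogenesis and mitochondrial DNA, 2 rose and 4 fell. Esrrb, an estrogen-related receptor of naive stem cells that is also among the embryonic stem cell markers, had log2 signals of 5.25 and 4.03 in the LcPOU5F3 clones, against 7.12 and 7.11 in the mOct4 clones and fell 5.57-fold (limma adjusted p = 0.0172). Its relative Esrra rose, with log2 signals of 2.80 and 3.62 in the LcPOU5F3 clones, against 1.89 and 1.88 in the mOct4 clones (1.33 ± 0.30, adjusted p = 0.0358). Gabpa, the DNA-binding subunit of GABP, fell 1.80-fold (-0.85 ± 0.18, adjusted p = 0.0294). Polg, the mitochondrial DNA polymerase, rose 1.91-fold (0.93 ± 0.16, adjusted p = 0.0189). The remaining calls were Pprc1, a PGC-1-related coactivator (-0.81), and Mterf1a, a mitochondrial transcription terminator (-1.20), both lower.

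Of 17 electron carrier and ubiquinone genes, 4 fell and none rose at an adjusted p under 0.05. They were Coq8a, an atypical kinase of ubiquinone synthesis, at -1.48 ± 0.18, Etfb, of the electron transfer flavoprotein, at -0.78 ± 0.15, and the ubiquinone enzymes Coq5 and Coq6 at -0.80 ± 0.16 and -0.62 ± 0.14. Of 24 genes of the TCA cycle and pyruvate entry, 1 rose and 5 fell. Pdk1 and Pdk4, kinases that restrain pyruvate dehydrogenase, fell 2.50-fold and 2.00-fold, and the pyruvate dehydrogenase genes Pdha1, Pdhb and Pdhx fell 1.63-fold, 1.53-fold and 1.63-fold. Mpc2, of the mitochondrial pyruvate carrier, rose 1.59-fold. Limma's adjusted p for these 6 lay between 0.0283 and 0.0496.

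Of 34 further assembly factors, 3 fell and none rose. They were Cox18, an insertase of complex IV (-1.04 ± 0.16), Ecsit, of complex I (-0.67 ± 0.14), and Cox10, of heme synthesis for complex IV (-0.62 ± 0.15). Of 77 mitochondrial ribosome genes, 9 fell and 1, Mrpl33, rose, with the smallest p in Mrps5 (log2 signals of 1.66 and 1.45 in the LcPOU5F3 clones, against 2.61 and 2.49 in the mOct4 clones, limma adjusted p = 0.0157). Of 7 uncoupling and carrier genes, 3 fell. The uncoupling protein genes Ucp2 and Ucp3 fell 4.38-fold and 6.13-fold, and Slc25a5, an ADP/ATP carrier that exports the ATP made by complex V, fell 1.83-fold (adjusted p = 0.0172). In LcPOU5F1 against mOct4 no gene of these 6 lists was called. In LcPOU5F1 against LcPOU5F3, where 20.6% of all genes were called, 7 of 17 regulators were higher and 1 lower. In the other lists all calls were higher, in 15 of 77 mitochondrial ribosome genes, 5 of 17 electron carrier genes, 5 of 34 further assembly factors, 3 of 24 TCA cycle genes and 3 of 7 uncoupling and carrier genes. Among the regulators Tfam, which packages mitochondrial DNA, was 1.76-fold higher (limma adjusted p = 0.0224).

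**Figure D5:**
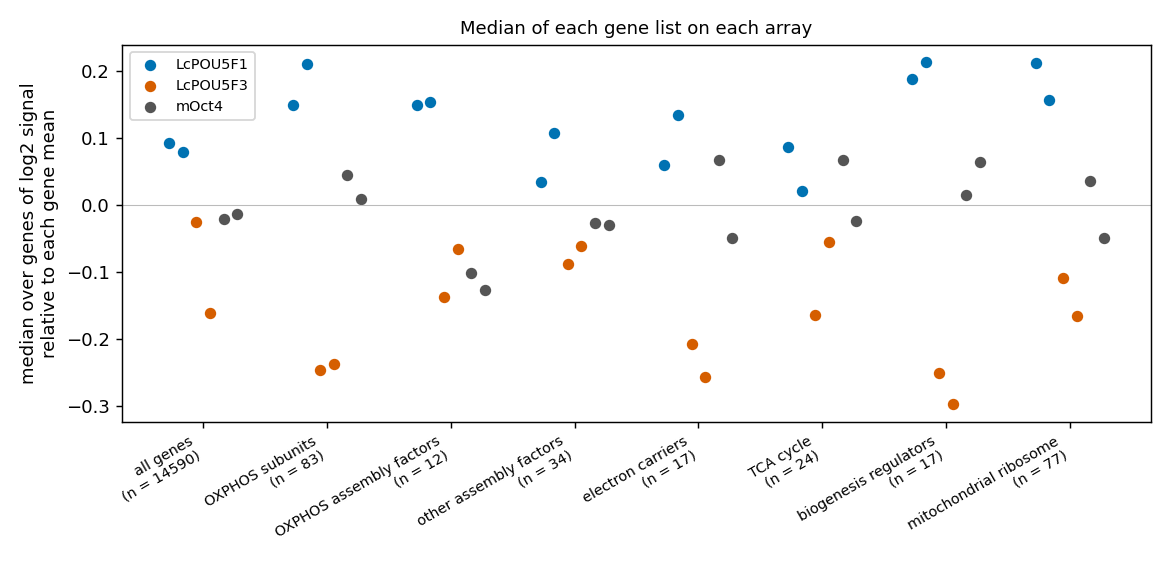
Median over the genes of a list of the log2 signal relative to each gene's mean over the arrays (vertical axis), with 1 point per array, for all genes, the subunits, the assembly factors and 5 related lists (horizontal axis). Both LcPOU5F3 points lie lowest for every list shown except the OXPHOS assembly factors, at -0.25 and -0.24 for the subunits and at -0.025 and -0.16 for all genes, and both LcPOU5F1 points lie highest for every list except the electron carriers and the TCA cycle.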

How the data were processed

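Total RNA of 6 clones in 3 groups of 2 was measured on 1-colour Agilent arrays of 55681 non-control probes. Per the file headers, the authors extracted spot intensity with Agilent Feature Extraction 11.0.1.1, and the deposited processed intensity is linear and background-subtracted, with no scaling between arrays. Flags for signals well above background and for outlying spots come from the same software, per the file headers. The series matrix holds the same intensity, rounded, as deposited.

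Outlier-flagged and control spots were left out, spots of a probe were averaged, and log2 signals were centred on the 75th percentile of their array. The filter asked that a probe be well above background in both clones of 1 or more groups. Probes were named by accession through a RefSeq table of GRCm38.p6, which gave 27656 probes 1 symbol and left 28025 unnamed. The array design names mm9, so that table served for names only. Of several probes of a gene, that with the highest mean was used. Groups were fitted with limma 3.58.1 (R 4.3.3; 3 residual and 5.16 moderated degrees of freedom) and adjusted by Benjamini-Hochberg over 14590 genes. P-values reflect how far the 2 clones of a group differ, and precision is limited by the number of arrays. The steps were tested on simulated data.

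The members and gene lists were chosen with earlier results of these data known. Genes named are those called, the highest and lowest of each complex per comparison, the SDH subunits, the isoform sets and up to 4 genes of a related list, or the 6 called where a list had 6. Whether a probe also reads a pseudogene or a close paralog was not tested. The NRF1 and YY1 letters searched in promoters were shortened by 1 base after a first search with the longer letters had been seen. Counts and medians cover all members, and 1 gene that the naming rule takes in is not reported here.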

Additional observations from a re-analysis of the deposited data

How the results depend on the processing

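Alternatives were run 1 at a time. In LcPOU5F3 against mOct4, 13 members were called. The share of all genes called with each alternative follows in brackets. Limma called 5 with arrays centred on the median (16.8%) and 22 after normexp background correction with offset 50, on the median spot intensity (26.6%). It called 1 with no filter on dim probes (7.36%) and 26 with probes well above background on all 6 arrays (29.7%). It called 39 with an intensity trend (31%), 6 with only the 4 arrays compared (15.1%) and 0 with the slide as a block (0.315%). At an adjusted p under 0.1 it called 34 (36.5%), and under 0.01 it called 0 (3.61%). In LcPOU5F1 against LcPOU5F3, where 11 were called, the counts were 2 with median centring (16.1%) and 3 with quantile scaling (20.2%). They were 17 after normexp (22.4%), 0 with no filter (4.6%), 34 with the stricter filter (28.4%) and 50 with the trend (30%). They were 0 with only the 4 arrays (3.4%), 0 with the slide block (3.4%), 45 under 0.1 (34.2%) and 0 under 0.01 (2.95%). In LcPOU5F1 against mOct4, where 0 were called, 1 was called with median centring (5.13%), 1 with quantile scaling (0.72%) and 1 with only the 4 arrays (3.63%). Leaving out each clone gave 0 to 20 calls in LcPOU5F3 against mOct4, 0 to 1 in LcPOU5F1 against mOct4 and 0 to 24 in LcPOU5F1 against LcPOU5F3. Each of these fits leaves 1 clone in a group, so no conclusion is drawn from these counts. The members' share called was not above that of all genes in any of these fits. The members' share called was below that of all genes at the main settings and above it with the trend (41.1% against 31% in LcPOU5F3 against mOct4, 52.6% against 30% in LcPOU5F1 against LcPOU5F3). In LcPOU5F1 against LcPOU5F3 it was also above with the stricter filter (37% against 28.4%) and under 0.1 (47.4% against 34.2%), and in LcPOU5F3 against mOct4 it was 28.3% against 29.7% and 35.8% against 36.5% with the same 2 settings. The causes of these changes between settings were not tested.

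The median of LcPOU5F1 against mOct4 reversed to -0.24 with median centring, as did that of all genes, and was 0.055 with quantile scaling and 0.069 after normexp. In LcPOU5F3 against mOct4 the median was -0.21 with median centring, -0.10 with quantile scaling and -0.20 with the percentile taken over probes, a setting chosen after seeing the data. In LcPOU5F1 against LcPOU5F3 it was 0.00021, 0.17 and 0.35 in the same order, 0.33 after normexp and 0.45 with the median of a gene's probes. Without each clone in turn it was -0.27 to -0.25, 0.12 to 0.18 and 0.37 to 0.44 in LcPOU5F3 against mOct4, LcPOU5F1 against mOct4 and LcPOU5F1 against LcPOU5F3. The called genes kept their signs wherever they were tested, and the stricter filter left out Cox8c and Ndufa4l2.

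With the clone number as a replicate block over the 4 arrays of LcPOU5F3 against mOct4, 0 members and 0 of all 14590 genes were called. The members' median was -0.25. Clones 1 of these groups deviated from their group means with a correlation of -0.0963, so the numbers were not taken to pair the clones. That block could not be fitted to LcPOU5F1, which shares no clone number with the other groups. Naming genes from the array's own gene names was not run, as the files used here have no such column. Each group has 2 clones, and dim probes such as Cox8c give bounds only.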
